A study of Rattus norvegicus with 59 samples.

Results

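Pck1, Fbp1 and Khk encode 3 enzymes of glucose and fructose handling in the kidney, and their RNA was followed in whole kidneys of 59 Fawn-Hooded Hypertensive rats, an inbred strain prone to hypertension and kidney failure. They were chosen by name as genes of gluconeogenesis and fructose metabolism, with earlier results of these data known, and other genes of these routes are on the array. They are 3 of the 13337 annotated genes that had a probe, with 1 probe each. The rats fell into 12 groups by age, sex and treatment. PDTC is pyrrolidine dithiocarbamate, used here as an inhibitor of NF-kB, and the mothers of the PDTC groups received 150 mg per L of it in their drinking water, starting 2 weeks before birth and ending 4 weeks after it. The PDTC groups held 4 males and 4 females at 2 days, 4 males and 6 females at 2 weeks, and 5 males and 5 females as adults. The untreated groups held 5 males and 5 females at 2 days, 6 males and 5 females at 2 weeks, and 5 males and 5 females as adults. Adult males were 36 weeks old and adult females 42 weeks, so adult sex and age in weeks cannot be told apart, and adults had been free of PDTC since the age of 4 weeks. Pups received PDTC through the mother. The sources name no litters, so some rats of a group may be litter mates, and the p-values cover the spread among the rats measured.

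Gluconeogenesis makes new glucose from lactate, glutamine and glycerol, and the kidney shares this task with the liver. Pck1, cytosolic phosphoenolpyruvate carboxykinase, turns oxaloacetate into phosphoenolpyruvate, and Fbp1, fructose-1,6-bisphosphatase, removes a phosphate farther along the same route. Khk, ketohexokinase, phosphorylates fructose, and all 3 genes are known to be active in the proximal tubule, the segment of the nephron that reclaims most of the filtered glucose, amino acids and phosphate.

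The promoters are shown because all 3 genes moved together between 2 days and 2 weeks of age. Each sequence holds the 250 bases before and 50 bases after the transcript start in RefSeq's annotation of the rat assembly GRCr8, all 3 genes being matched by gene ID: Pck1 at chr3:182348322-182348621 on the plus strand, Fbp1 at chr17:2213457-2213756 on the plus strand and Khk at chr6:31175432-31175731 on the minus strand. Capitals mark matches to the motifs searched.
Pck1: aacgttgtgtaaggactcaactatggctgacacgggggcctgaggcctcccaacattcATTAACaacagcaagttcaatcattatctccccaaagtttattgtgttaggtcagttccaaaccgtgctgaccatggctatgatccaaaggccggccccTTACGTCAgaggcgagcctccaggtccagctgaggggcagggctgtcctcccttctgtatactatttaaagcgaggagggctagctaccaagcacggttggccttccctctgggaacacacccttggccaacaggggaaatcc
Fbp1: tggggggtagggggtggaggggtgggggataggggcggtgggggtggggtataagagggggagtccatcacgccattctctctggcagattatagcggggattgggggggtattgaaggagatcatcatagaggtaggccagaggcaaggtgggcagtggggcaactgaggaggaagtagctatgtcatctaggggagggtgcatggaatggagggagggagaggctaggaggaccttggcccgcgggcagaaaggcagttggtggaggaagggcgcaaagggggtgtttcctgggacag
Khk: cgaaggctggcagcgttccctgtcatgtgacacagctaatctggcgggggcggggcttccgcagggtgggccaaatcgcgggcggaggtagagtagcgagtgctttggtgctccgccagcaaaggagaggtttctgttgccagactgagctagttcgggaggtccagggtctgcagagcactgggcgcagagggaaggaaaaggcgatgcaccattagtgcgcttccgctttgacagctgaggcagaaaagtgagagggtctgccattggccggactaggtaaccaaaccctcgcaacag
On both strands, 8 motifs were searched: the cAMP response element TGACGTCA, its variant TTACGTCA known from the Pck1 promoter, the C/EBP palindrome TTGCGCAA, the E-box CACGTG, the HNF4 core CAAAGTCCA, the palindromic glucocorticoid response element, the HNF1 motif GTTAAT and the TATA box TATAAA. The Pck1 window held TTACGTCA at positions -93 to -86 from the start, letters found in 0.807% of 33469 promoter windows of the same length. It also held GTTAAT on the minus strand at -192 to -187, as did 7.45% of all windows. No motif of the 8 matched in the Fbp1 or Khk windows. Both genes are annotated as beginning upstream of their windows, at chr17:2212941 for Fbp1 and chr6:31175779 for Khk. The sequence before those positions was not searched. The shares of all windows with the other motifs were 1.83% for TGACGTCA, 0.17% for TTGCGCAA, 6.42% for CACGTG, 0.391% for CAAAGTCCA, 0.0149% for the glucocorticoid response element and 14.2% for TATAAA. The windows held 53.3% G and C in Pck1, 61% in Fbp1 and 60% in Khk, against a median of 51.7% over all windows.

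All 3 probes were bright. Each was above the array's background on 59 of 59 arrays, and the raw signal reached 6456 to 34030 for Pck1, 2148 to 24349 for Fbp1 and 704 to 4627 for Khk. Ranked among the 22523 probes of its array, Pck1 stood between rank 4 and rank 236 (median 42), Fbp1 between 54 and 318 (median 127) and Khk between 654 and 2062 (median 1030). These ranks place each probe within its array, and levels of different probes are not compared. Values below are background-corrected, quantile-normalized log2 signals unless a raw signal is named, and a difference of 1 is a 2-fold change of signal.

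Between 9139 and 12488 probes per array were above background (median 11629), with fewer in adults (9139 to 10864) than at 2 days (11113 to 12459) or 2 weeks (10665 to 12488). Slides 1 to 6 held the pups and slides 7 to 10 the adults, apart from untreated 2-week male 6 on slide 8, so age and slide cannot be told apart in adults. Of the proximal tubule markers, 13 of 13 with a probe were above background on most arrays of every group. Among the 5 liver markers, Fgb was above background on every array. Serpina1 was so on 18 of 18 arrays at 2 days, 7 of 21 at 2 weeks and 0 of 20 in adults, and Alb on 3, 2 and 0 arrays of the same ages. Tat was above background on 1 adult array and Apoa2 on 0 arrays. Of the 4 fat cell markers with a probe, Cfd and Fabp4 were above background on every array, Adipoq on 6 of 18 arrays at 2 days, 20 of 21 at 2 weeks and 19 of 20 in adults, and Lep on 0 arrays. RNA came from whole kidneys, so fewer cells of a type and less RNA per cell cannot be told apart.

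All 3 genes were higher at 2 weeks than at 2 days, in PDTC and in untreated rats alike. In PDTC pups the rise was 1.67-fold for Pck1, 1.65-fold for Fbp1 and 1.79-fold for Khk. In untreated pups it was 1.58-fold for Pck1, 1.40-fold for Fbp1 and 1.45-fold for Khk. From 2 weeks to adulthood Pck1 rose further in untreated rats, by 1.46-fold. It did not pass in PDTC rats, nor did Fbp1 and Khk in either treatment, and the difference between the genes was not tested.

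Khk, which starts fructose breakdown, had the smallest SE of the 3 genes between the pup ages. In PDTC pups its lowest, median and highest values were 11.13, 11.39 and 11.49 at 2 weeks (n = 10), against 10.27, 10.48 and 10.94 at 2 days (n = 8). The ranges did not overlap. In untreated pups they were 11.09, 11.49 and 11.76 at 2 weeks (n = 11), against 10.62, 10.99 and 11.14 at 2 days (n = 10). Here the ranges overlapped slightly, since the lowest 2-week pup, male 6, lay within the 2-day range, yet 11 of 11 pups of 2 weeks lay above the mean of 2-day pups of their sex. The log2 difference was 0.84 ± 0.09 (SE) in PDTC pups (limma, Benjamini-Hochberg adjusted p = 1.19e-06) and 0.54 ± 0.08 in untreated pups (adjusted p = 2.16e-05). On every slide that held both ages the 2-week mean was the higher one, by 0.58 to 0.98 on 5 slides of PDTC pups and by 0.46 to 0.68 on 6 slides of untreated pups.

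Pck1, the entry step from oxaloacetate, moved by a like amount but with a few pups far below the rest. In PDTC pups its lowest, median and highest values were 13.35, 14.31 and 14.67 at 2 weeks, against 13.07, 13.58 and 13.95 at 2 days. In untreated pups they were 13.71, 14.53 and 14.70 at 2 weeks, against 13.59, 13.69 and 13.98 at 2 days. The medians stood apart while the ranges overlapped, and PDTC female 3 and untreated male 3 of 2 weeks had values as low as newborns. The log2 difference was 0.74 ± 0.15 in PDTC pups (limma, adjusted p = 5.32e-04) and 0.66 ± 0.11 in untreated pups (adjusted p = 4.38e-05). Within slides the 2-week mean was higher on 5 of 5 slides of PDTC pups and 6 of 6 slides of untreated pups.

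Fbp1, the phosphatase step, had the widest scatter at 2 days. In PDTC pups its lowest, median and highest values were 13.47, 13.90 and 14.07 at 2 weeks, against 12.77, 13.13 and 13.61 at 2 days. In untreated pups they were 13.46, 14.01 and 14.10 at 2 weeks, against 12.85, 13.58 and 13.65 at 2 days. The ranges overlapped in both, and 10 of 10 PDTC pups and 10 of 11 untreated pups of 2 weeks lay above the newborn mean of their sex. The log2 difference was 0.73 ± 0.13 in PDTC pups (limma, adjusted p = 1.44e-04) and 0.48 ± 0.12 in untreated pups (adjusted p = 0.00264). Within slides the 2-week mean was higher on 5 of 5 slides of PDTC pups and on 5 of 6 slides of untreated pups. With every array scaled to 1 median, the untreated difference of Fbp1 was 0.36 and did not pass (adjusted p = 0.113).

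Calls of this kind were common. Over all probes tested, 18% were called higher at 2 weeks in PDTC pups and 16.9% in untreated pups, and 38.4% and 37.8% were called in either direction, so 3 of 3 called higher is read against these shares. Split by sex in untreated pups, Pck1 was 0.66 ± 0.16 in females and 0.67 ± 0.15 in males, and Khk 0.69 ± 0.12 in females and 0.39 ± 0.11 in males, all 4 past the threshold (limma, adjusted p = 0.00350, 0.00208, 2.02e-04 and 0.0152). Fbp1 was 0.59 ± 0.17 in females (adjusted p = 0.0150) and 0.38 ± 0.16 in males (adjusted p = 0.106). The background shares were 10.8% called higher in females and 10.3% in males. Fbp1 in males passed without untreated 2-week male 4 (0.46, adjusted p = 0.0459) and in females did not pass without untreated 2-day female 2 (0.47, adjusted p = 0.0528). Khk in males did not pass without untreated 2-day male 2 (0.33, adjusted p = 0.0538). With arrays scaled to 1 median, Khk in females was the only one of these 6 values past the threshold. Whether the age change differed between the sexes was not tested.

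**Figure D1:**
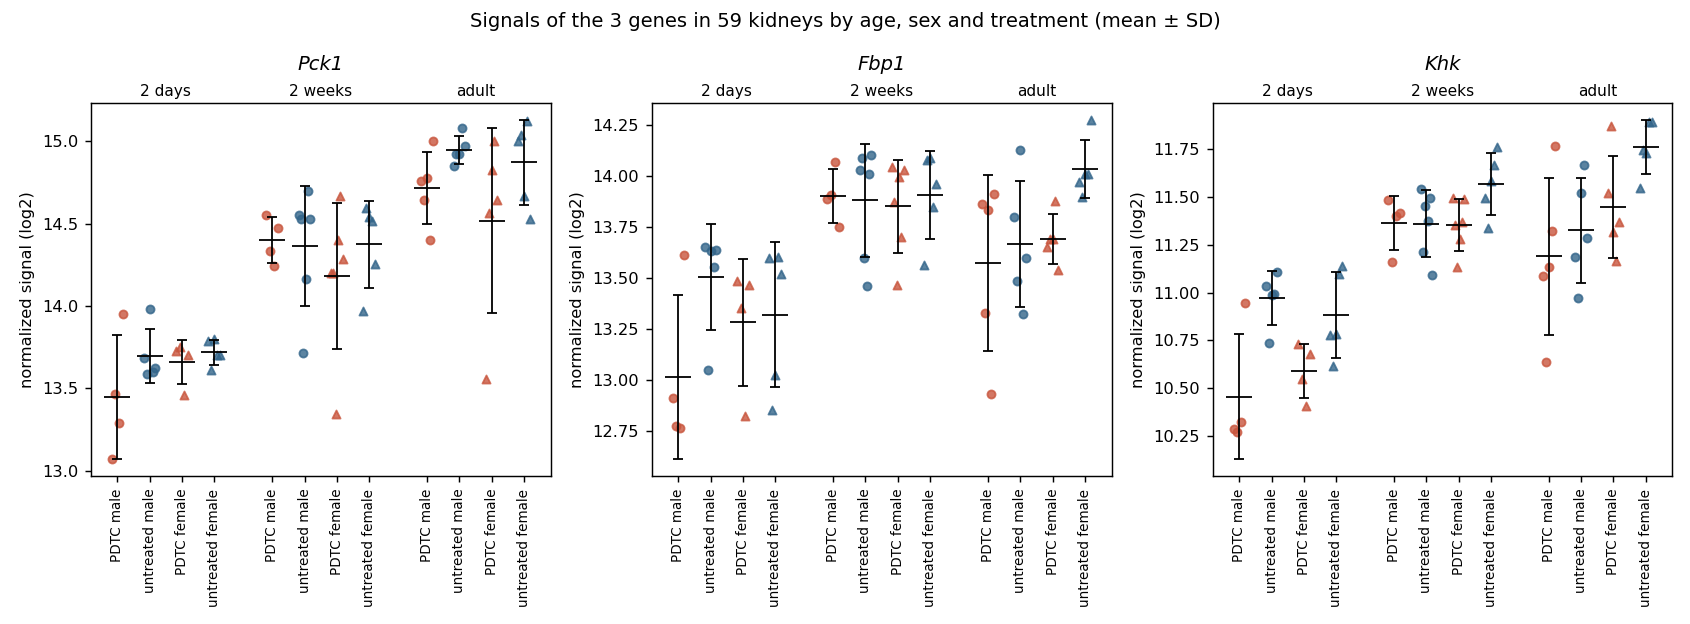
Normalized log2 signals of Pck1, Fbp1 and Khk for each of the 59 kidneys (circles males, triangles females), with the mean ± SD of each of the 12 groups (n = 4 to 6). The 2-week means sit above the 2-day means for all 3 genes, and the adult Pck1 means sit above the 2-week means, with single low kidneys such as adult PDTC female 1 at 13.56.

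Other genes of the same routes, from lists that leave out the 3 enzymes, also moved between 2 days and 2 weeks. List counts for these ages stand beside 18% of all probes called higher and 20.4% lower in PDTC pups. In untreated pups these shares were 16.9% and 20.9%. Among the other gluconeogenesis genes, 3 of 5 rose and 1 fell, both in PDTC and in untreated pups. G6pc1, the catalytic subunit of glucose-6-phosphatase that releases free glucose, rose by 1.32 ± 0.23 log2 units in PDTC pups (limma, adjusted p = 1.44e-04) and by 0.93 ± 0.16 in untreated pups (adjusted p = 1.13e-04). Pc, pyruvate carboxylase, which feeds oxaloacetate to Pck1, rose by 1.11 ± 0.14 in PDTC pups and by 0.85 ± 0.11 in untreated pups. Slc37a4, the glucose-6-phosphate transporter, rose by 0.60 ± 0.12 in PDTC pups and 0.36 ± 0.09 in untreated pups. Fbp2, the muscle form of the phosphatase, had differences of -0.50 ± 0.13 in PDTC pups and -0.59 ± 0.15 in untreated pups, both past the threshold. Pck2, the mitochondrial form of the carboxykinase, had -0.09 ± 0.07 in PDTC pups and -0.12 ± 0.11 in untreated pups and did not pass.

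In the list of fructose and polyol metabolism, 3 of 5 other tested genes rose at 2 weeks and 0 fell, in PDTC and in untreated pups. Akr1b1, aldose reductase, which makes sorbitol from glucose, rose by 1.59 ± 0.11 in PDTC pups and 1.37 ± 0.15 in untreated pups. Slc2a5, the fructose transporter GLUT5, rose by 1.03 ± 0.15 in PDTC pups and 1.01 ± 0.12 in untreated pups. Sord, sorbitol dehydrogenase, which turns sorbitol into fructose, rose by 0.99 ± 0.18 in PDTC pups and 0.74 ± 0.17 in untreated pups. Slc2a2, the GLUT2 transporter, had -0.00 ± 0.20 in PDTC pups and -0.29 ± 0.17 in untreated pups, and Glyctk, glycerate kinase, had 0.05 ± 0.09 and -0.03 ± 0.09; neither passed.

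The median difference was 0.60 in PDTC pups and 0.36 in untreated pups over the other gluconeogenesis genes, and 0.99 and 0.74 over the fructose and polyol genes, while over all probes it was -0.00 and -0.01. Of 17 genes that supply carbon to gluconeogenesis, 8 rose and 0 fell in PDTC pups, and 7 rose and 1 fell in untreated pups. Both subunits of the mitochondrial pyruvate carrier were among them, with Mpc1 at 0.73 ± 0.11 in PDTC pups and 0.83 ± 0.12 in untreated pups, and Mpc2 at 0.63 ± 0.08 in PDTC pups and 0.71 ± 0.11 in untreated pups. Among regulators of gluconeogenic genes, 4 of 16 rose in PDTC pups and 4 of 17 in untreated pups, and 0 fell in either. Beside these counts, 18% of all probes were called higher in PDTC pups and 16.9% in untreated pups. The liver and kidney transcription factor Hnf4a rose by 0.99 ± 0.13 in PDTC pups and 0.68 ± 0.16 in untreated pups, and Cebpa by 1.18 ± 0.13 in PDTC pups and 0.94 ± 0.14 in untreated pups. The coactivator Ppargc1a had 0.16 ± 0.16 in PDTC pups and 0.65 ± 0.34 in untreated pups and did not pass. In untreated pups with arrays scaled to 1 median, 2 carbon supply genes and 2 regulators rose, and without untreated 2-week male 6 the regulators that rose numbered 7.

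Of the reversible steps, shared with gluconeogenesis, 1 of 7 rose and 1 fell in PDTC pups, and 1 rose and 2 fell in untreated pups. Of the irreversible steps, 1 of 9 rose and 1 fell in each. Over all probes, 18% were called higher and 20.4% lower in PDTC pups, and 16.9% and 20.9% in untreated pups. Proximal tubule markers rose beside the 3 enzymes, 11 of 13 in PDTC pups and 9 of 13 in untreated pups, with median differences of 0.92 and 0.76. Their summed level spanned 58896 to 84439 in PDTC females and 76543 to 80558 in PDTC males of 2 weeks, against 37386 to 66904 and 35175 to 68360 in the same sexes at 2 days. In untreated pups it spanned 66826 to 81610 in females and 63337 to 80800 in males of 2 weeks, against 39693 to 61828 and 43096 to 65082 at 2 days. Markers of some other cell types were higher at 2 weeks as well, and those of others were lower. In each sex and treatment the mean log2 signal of podocyte, liver and nephron progenitor markers had a lower group median at 2 weeks. The 2 nephron progenitor markers lay near background. Six2 was above it on 10 of 18 arrays at 2 days and Cited1 on 4 of 18, and both on 0 of 21 at 2 weeks. Medians in untreated males were 9.31 at 2 weeks and 9.55 at 2 days for podocyte markers, and 5.41 and 5.89 for liver markers. Collecting duct medians were nearly the same in untreated pups, at 9.19 at 2 weeks and 9.20 at 2 days in males and 9.32 and 9.35 in females. In PDTC pups they were 9.29 and 9.20 in males and 9.27 and 9.02 in females. The ranges overlapped in each sex and treatment. The summed level of 4 loop and distal tubule markers spanned 32758 to 41003 in PDTC pups of 2 weeks, against 21487 to 24734 at 2 days, and 33436 to 47940 in untreated pups of 2 weeks, against 20488 to 27045 at 2 days. That of 3 leukocyte markers spanned 481 to 658 in PDTC pups of 2 weeks, against 177 to 307 at 2 days, and 538 to 1257 in untreated pups of 2 weeks, against 187 to 311 at 2 days. Neither sum overlapped between the ages. Single genes weighed heavily in both. Over all pups the median of Umod was 14.64 at 2 weeks and 12.65 at 2 days, and that of Calb1 was 12.96 and 13.70. Slc12a3 and Kcnj1 had higher medians at 2 weeks. Among leukocyte markers, the median of Cd74 was 9.01 at 2 weeks and 7.26 at 2 days. That of Ptprc was 5.11 and 4.95, and Cd3e was also higher at 2 weeks. Of the fat cell markers, 2 of 3 tested rose in PDTC pups and 3 of 3 in untreated pups, and of the red cell markers 3 of 3 rose in each. The part of these markers in the rise of the 3 enzymes was not tested.

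**Figure D2:**
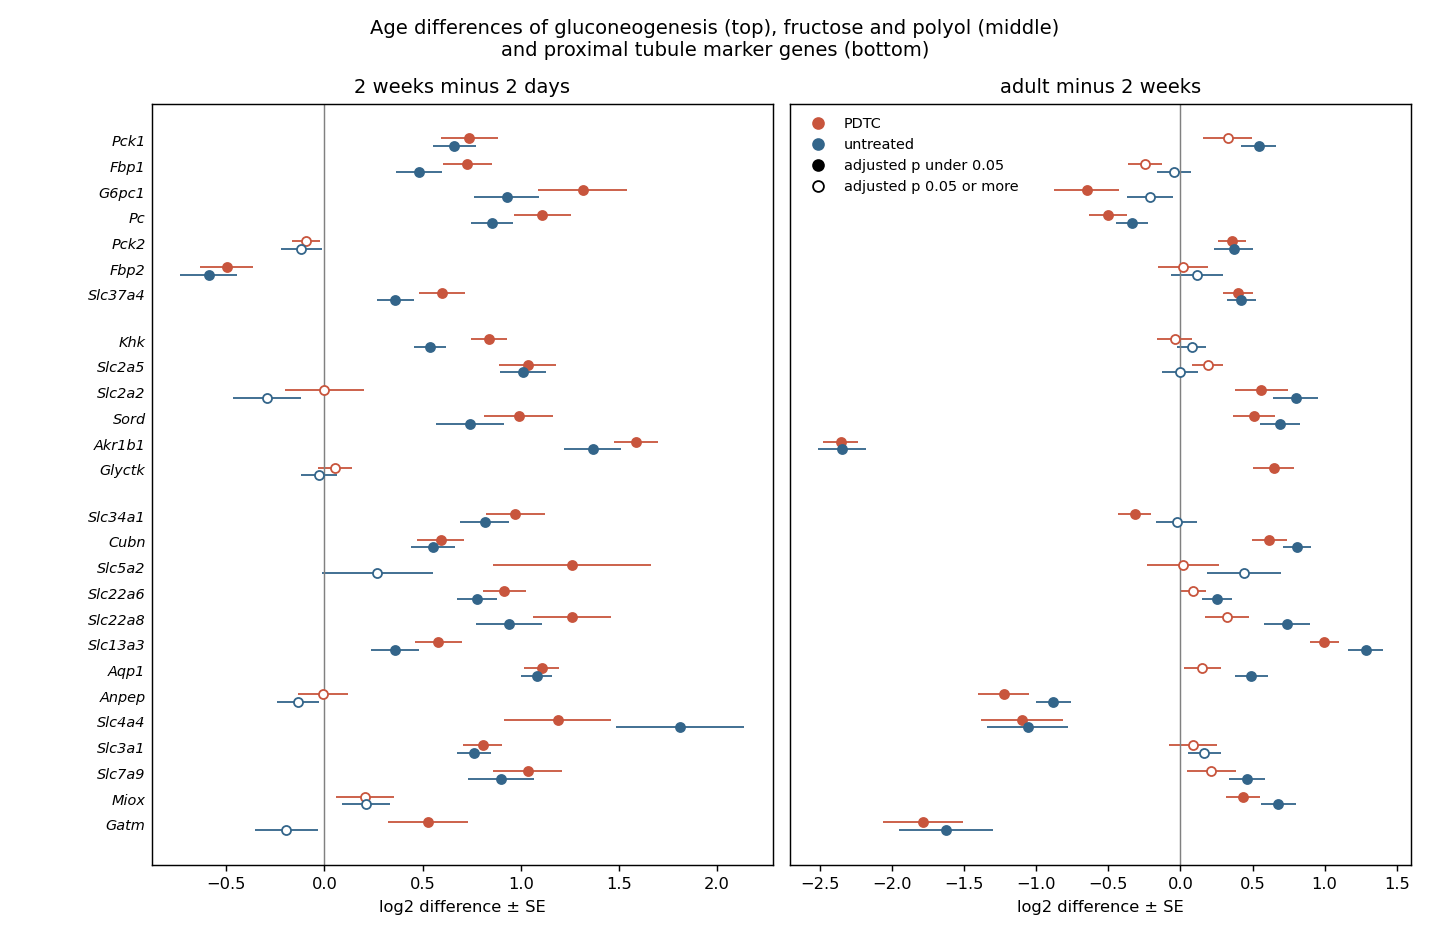
Log2 differences ± SE between ages for gluconeogenesis genes (top), fructose and polyol genes (middle) and proximal tubule markers (bottom), in PDTC (red) and untreated (blue) rats, with filled points where the adjusted p was under 0.05. At 2 weeks against 2 days most points lie right of 0, whereas Akr1b1 stands at -2.36 and -2.35 in adults against 2 weeks; a gene with 1 point was tested in that treatment only.

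Into adulthood, Pck1 was the 1 gene of the 3 that passed, and only in untreated rats. In PDTC rats the lowest, median and highest Pck1 values were 13.56, 14.70 and 15.00 in adults, against 13.35, 14.31 and 14.67 at 2 weeks. In untreated rats they were 14.53, 14.95 and 15.12 in adults, against 13.71, 14.53 and 14.70 at 2 weeks. In untreated males alone the ages did not overlap, and 10 of 10 untreated adults lay above the 2-week mean of their sex. The log2 difference was 0.33 ± 0.17 in PDTC rats (limma, adjusted p = 0.0915) and 0.54 ± 0.12 in untreated rats (adjusted p = 6.34e-04). Without adult PDTC female 1, the difference in PDTC rats was 0.45 and passed (adjusted p = 0.00723), as it did in 1 fit of all 12 groups (0.33, adjusted p = 0.0317). The call in untreated rats was lost with slide as a fixed term (0.30, adjusted p = 0.749), where the only link between the ages is the single pup on slide 8.

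Over all probes, 32.7% were called higher in adults among PDTC rats and 31.7% among untreated rats, so a single call in 3 genes is near the background. In untreated females Pck1 differed by 0.50 ± 0.18 (limma, adjusted p = 0.0232, with 25.6% of probes called higher) and in untreated males by 0.59 ± 0.17 (adjusted p = 0.00805, with 22.3%). In females the call was lost on leaving out any of 5 rats, with adjusted p of 0.0501 to 0.0779 there: 2-week females 1 and 5, and adult females 1, 2 and 4.

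Fbp1 and Khk had no call in either treatment. Fbp1 was -0.24 ± 0.12 in PDTC rats (limma, adjusted p = 0.0752) and -0.04 ± 0.12 in untreated rats (adjusted p = 0.752). Khk was -0.04 ± 0.12 in PDTC rats (adjusted p = 0.775) and 0.08 ± 0.10 in untreated rats (adjusted p = 0.500). The 95% intervals of Khk ran between -0.29 and 0.21 in PDTC rats and between -0.13 and 0.29 in untreated rats. The Fbp1 fall in PDTC rats passed without 2-week PDTC female 3 (-0.28, adjusted p = 0.0387), without adult PDTC male 1 (-0.28, adjusted p = 0.0473) and without adult PDTC male 5 (-0.29, adjusted p = 0.0395).

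The adult comparison depends on how arrays are put on 1 scale. The raw median signal of Pck1 was 17996 in PDTC adults, against 27015 in PDTC pups of 2 weeks, and 19046 in untreated adults, against 22154 in untreated pups of 2 weeks. For Fbp1 it was 8042 in PDTC adults, against 18441 at 2 weeks, and 6682 in untreated adults, against 14898 at 2 weeks. For Khk it was 1157 in PDTC adults, against 3903 at 2 weeks, and 1312 in untreated adults, against 3697 at 2 weeks. Giving every array the same median, without quantile normalization, moved the median of all probes to -0.66 in PDTC rats and -0.57 in untreated rats. Pck1 then differed by 0.12 in PDTC rats, 0.78 above that median, and by 0.36 in untreated rats, 0.93 above it, and no longer passed there (adjusted p = 0.0731). Fbp1 and Khk differed by -0.62 and -0.82 in PDTC rats and by -0.53 and -0.68 in untreated rats, all 4 past the threshold, and lay within 0.17 of the shifted median. The share of called probes that were higher was 48.3% in PDTC rats and 49.6% in untreated rats as reported, and 17.2% and 17.3% with that scaling.

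**Figure D3:**
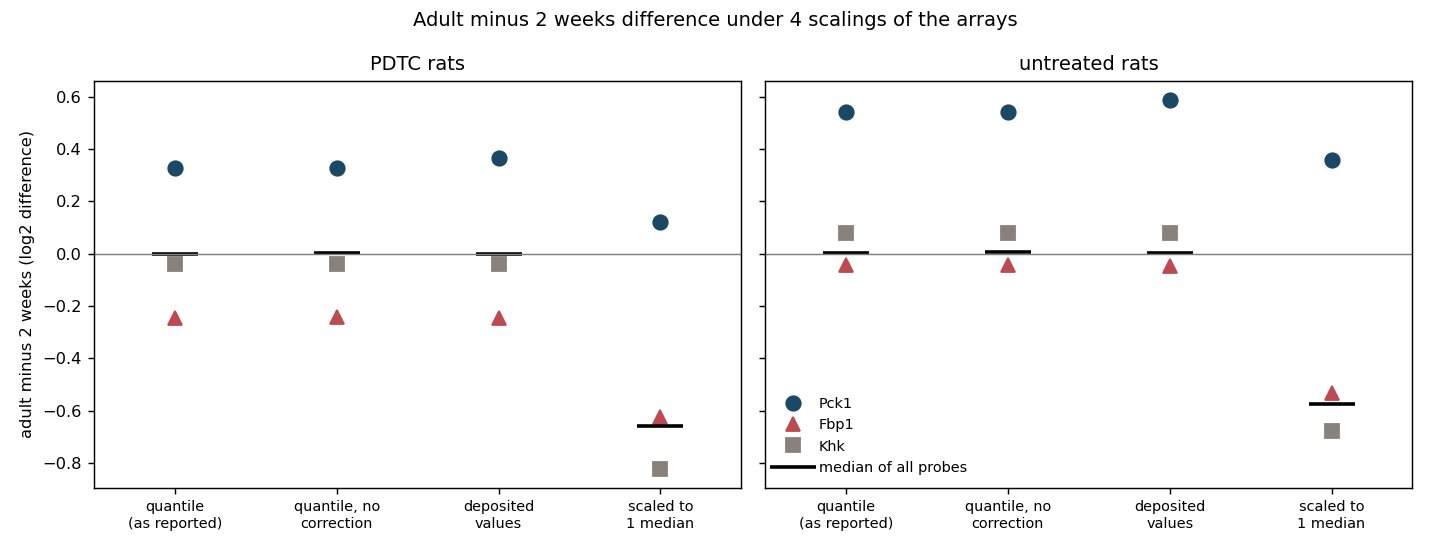
Adult minus 2 weeks log2 difference of Pck1, Fbp1 and Khk, in PDTC rats (left) and untreated rats (right), under 4 scalings of the arrays, with a bar at the median of all probes. Only the scaling to 1 median departs clearly from quantile normalization. Pck1 lies above the median of all probes under each scaling, whereas Fbp1 and Khk move down with that median, to -0.53 and -0.68 in untreated rats, when arrays are scaled to 1 median.

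Other genes of the routes changed in both directions in adults with quantile normalization. Slc37a4 rose by 0.40 ± 0.11 in PDTC rats and 0.42 ± 0.10 in untreated rats, and Pck2 rose by 0.36 ± 0.10 in PDTC rats and 0.37 ± 0.14 in untreated rats. Pc had -0.50 ± 0.13 in PDTC rats and -0.34 ± 0.11 in untreated rats, both past the threshold, and G6pc1 had -0.65 ± 0.23 in PDTC rats (limma, adjusted p = 0.0152) and -0.21 ± 0.16 in untreated rats (adjusted p = 0.244). The counts that follow stand beside 32.7% of all probes called higher and 35% lower in PDTC rats, and 31.7% and 32.3% in untreated rats. In all, 2 of 5 gluconeogenesis genes rose and 2 fell in PDTC rats, and 2 rose and 1 fell in untreated rats. Among fructose and polyol genes 3 of 5 rose and 1 fell in PDTC rats, and 2 of 4 rose and 1 fell in untreated rats. Akr1b1 had -2.36 ± 0.12 in PDTC rats and -2.35 ± 0.16 in untreated rats, while Slc2a2 rose by 0.56 ± 0.19 in PDTC rats and 0.80 ± 0.15 in untreated rats and Sord by 0.51 ± 0.14 and 0.69 ± 0.14.

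Of 17 carbon supply genes 8 rose and 2 fell in PDTC rats, and 9 rose and 1 fell in untreated rats. The lactate dehydrogenases parted: Ldhb rose by 0.98 ± 0.10 in PDTC rats and 0.83 ± 0.12 in untreated rats, and Ldha had -0.35 ± 0.08 and -0.28 ± 0.09, also past the threshold. Of the regulators, 6 of 15 rose and 1 fell in PDTC rats, and 8 of 16 rose and 2 fell in untreated rats. Klf15, a factor that in mice drives amino acid use for gluconeogenesis, rose by 1.82 ± 0.14 in PDTC rats and 1.65 ± 0.12 in untreated rats, and Ppargc1a had -1.34 ± 0.26 and -1.70 ± 0.28, past the threshold in both. Of the proximal tubule markers 3 of 13 rose and 4 fell in PDTC rats, and 7 rose and 3 fell in untreated rats; their part in the Pck1 values was not tested. The summed level of the leukocyte markers spanned 3518 to 11978 in PDTC adults and 3109 to 8405 in untreated adults, above the sums of 2-week pups given before. These adult counts turned with the scaling to 1 median: 0 of the gluconeogenesis genes then rose and 3 fell in each treatment, 2 carbon supply genes rose and 9 fell in PDTC rats, and 2 rose and 8 fell in untreated rats. The regulators then had 2 higher and 8 lower in PDTC rats and 1 higher and 6 lower in untreated rats, and the proximal tubule markers 1 higher and 9 lower in PDTC rats and 1 higher and 5 lower in untreated rats.

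PDTC made no called difference to the 3 enzymes at any age. In both sexes together, 9 of 9 differences of PDTC minus untreated (3 genes at 3 ages) lay below 0 and 0 of 9 passed, though with arrays scaled to 1 median Fbp1 and Khk at 2 weeks stood at 0.022 and 0.029. Within single sexes 15 of 18 differences lay below 0, and in males of 2 weeks Pck1, Fbp1 and Khk stood above it, at 0.036, 0.022 and 0.0054. Here 0% of probes were called by limma at 2 days, 2 weeks and in adults. An unadjusted p under 0.05 was held by 15.8% of probes at 2 days, 5.22% at 2 weeks and 5.71% in adults. Of all probes, 54.2% lay below 0 at 2 days, 49.9% at 2 weeks and 51.3% in adults. The 3 genes were measured in the same rats, so these signs are not separate observations.

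Khk at 2 days came closest to the threshold. PDTC males 1 to 4 had values of 10.28, 10.27, 10.32 and 10.94, against 11.03, 10.73, 10.99, 10.99 and 11.11 in untreated males 1 to 5. PDTC females 1 to 4 had values of 10.73, 10.55, 10.41 and 10.68, against 10.78, 10.62, 10.78, 11.10 and 11.14 in untreated females 1 to 5. In each sex the ranges overlapped, by PDTC male 4 among the males and by untreated female 2 among the females, and 0 of 8 PDTC pups lay above the untreated mean of their sex. The log2 difference was -0.40 ± 0.10 (95% interval -0.62 to -0.19, 0.76-fold), with an unadjusted p of 8.59e-04 that ranked 87 among 13163 probes, and limma's adjusted p was 0.125. The difference was -0.52 ± 0.14 in males and -0.29 ± 0.14 in females, and the sex difference of the effect, 0.22 ± 0.20, did not pass (adjusted p = 0.9999). On 5 of 5 slides that held both treatments the PDTC mean was lower, by log2 differences of -0.52 to -0.18. These slide means pooled the sexes, and slides 1 and 3 set a rat of 1 sex against a rat of the other. Within 1 sex, PDTC was lower on 3 of 3 slides in males (-0.67 to -0.05) and on 2 of 2 in females (-0.37 to -0.23). The call was reached with array weights (-0.44, adjusted p = 0.0380) and without PDTC male 4 (-0.49, adjusted p = 0.0279), and without slide 6 the difference was -0.31 (adjusted p = 0.646). With arrays scaled to 1 median it was -0.23. Slide 6 held untreated male 5 and untreated females 4 and 5 of this age, and no PDTC pup of 2 days. Their Khk values, 11.11, 11.10 and 11.14, were the highest of the newborns, so treatment and slide were partly confounded in this difference. The summed level of 3 stromal markers at 2 days spanned 19963 to 23389 in PDTC females, against 12640 to 18281 in untreated females, and 15900 to 25813 in PDTC males, against 12577 to 17722 in untreated males. The females did not overlap, 0 of the 3 stromal markers passed, and their part in the Khk difference was not tested.

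**Figure D4:**
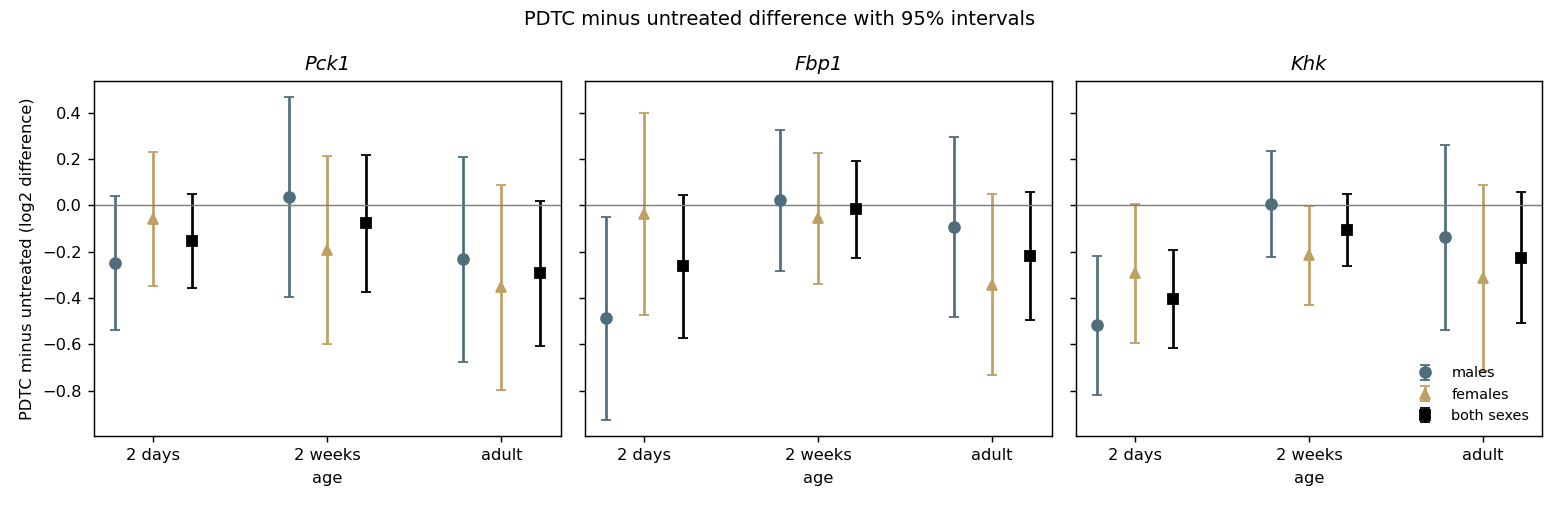
Log2 difference of PDTC minus untreated rats for Pck1, Fbp1 and Khk at 3 ages, in males, in females and in both sexes, with 95% intervals from limma before any adjustment for multiple testing. The interval for Khk at 2 days in both sexes, -0.62 to -0.19, lies below 0, and 0 of the adjusted p-values passed.

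Fbp1 at 2 days split the kidneys within groups. PDTC males 1 to 4 had values of 12.91, 12.77, 12.77 and 13.61, against 13.65, 13.05, 13.63, 13.55 and 13.64 in untreated males 1 to 5. PDTC females 1 to 4 had values of 13.49, 13.35, 12.83 and 13.47, against 13.60, 12.85, 13.02, 13.60 and 13.52 in untreated females 1 to 5. Values between 13.05 and 13.35 were absent, with 4 of 8 PDTC pups and 3 of 10 untreated pups at the lower end. The difference was -0.26 ± 0.15 (limma, adjusted p = 0.395), with -0.49 ± 0.21 in males and -0.04 ± 0.21 in females, and the sex difference of the effect, 0.45 ± 0.29, did not pass (adjusted p = 0.9999).

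Pck1 at 2 days showed less of such a split. PDTC males 1 to 4 had values of 13.07, 13.47, 13.29 and 13.95, against 13.69, 13.59, 13.98, 13.60 and 13.62 in untreated males 1 to 5. PDTC females 1 to 4 had values of 13.73, 13.75, 13.46 and 13.70, against 13.79, 13.61, 13.80, 13.70 and 13.70 in untreated females 1 to 5. The ranges overlapped in both sexes, and the difference was -0.15 ± 0.10 (limma, adjusted p = 0.460).

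The same 7 newborn kidneys that were low in Fbp1 had low proximal tubule markers. The mean log2 signal of the 13 markers was 10.69 to 11.09 in the 4 low PDTC kidneys (males 1 to 3 and female 3) and 10.97 to 11.05 in the 3 low untreated kidneys (male 2 and females 2 and 3). In the other newborn kidneys it was 11.54 to 11.81 in PDTC pups and 11.45 to 11.79 in untreated pups. With that mean as a covariate, an alternative chosen after the data were seen, the PDTC difference at 2 days was -0.35 for Khk (limma, adjusted p = 0.109), -0.16 for Fbp1 (adjusted p = 0.242) and -0.11 for Pck1 (adjusted p = 0.518). Over all 59 arrays, deviations from group means correlated with those of the marker mean at r = 0.84 for Fbp1, 0.54 for Pck1 and 0.51 for Khk; the points share their arrays and normalization.

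**Figure D5:**
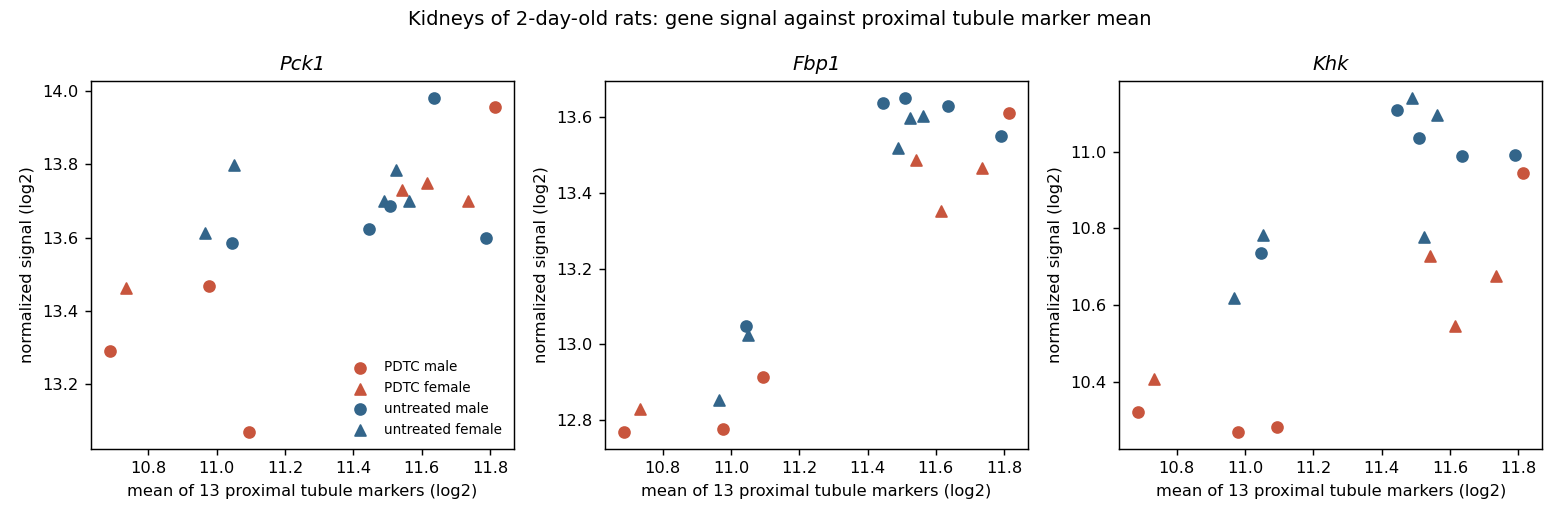
Normalized log2 signal of each gene in the 18 kidneys of 2-day-old rats against the mean log2 signal of 13 proximal tubule markers on the same array, PDTC in red and untreated in blue, circles males and triangles females. For Fbp1 the 7 kidneys with a marker mean of 11.09 or less lie at 13.05 or below, and for Khk the PDTC kidneys lie mostly under untreated kidneys of a like marker mean.

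At 2 weeks 0 of the 3 genes passed for PDTC minus untreated. In both sexes together they were -0.08 ± 0.14 for Pck1, -0.02 ± 0.10 for Fbp1 and -0.11 ± 0.08 for Khk (limma, adjusted p = 0.900, 0.969 and 0.825), and the 95% interval of Khk ran between -0.26 and 0.05. In females Khk was -0.22 ± 0.10, with 0 of 6 PDTC females above the untreated mean (unadjusted p = 0.0490, adjusted p = 0.999), and in males it was 0.0054 ± 0.11, with 3 of 4 PDTC males above it. The Khk values of the PDTC females had a lowest, median and highest of 11.13, 11.36 and 11.49, against 11.34, 11.59 and 11.76 in untreated females, and the ranges overlapped. The effect on Khk at 2 weeks minus that at 2 days was 0.30 ± 0.12, with an unadjusted p of 0.0199 and an adjusted p of 0.99999, where 0% of 14079 probes were called.

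In adults, long after the exposure, the differences in both sexes were -0.29 ± 0.15 for Pck1, -0.22 ± 0.13 for Fbp1 and -0.23 ± 0.14 for Khk, each with a limma adjusted p of 0.799. Adult PDTC females 1 to 5 had Fbp1 values of 13.65, 13.69, 13.69, 13.88 and 13.54, against 13.97, 13.90, 14.01, 14.01 and 14.27 in untreated females 1 to 5. These ranges did not overlap, by the narrow margin of PDTC female 4 and untreated female 2, and the difference was -0.34 ± 0.19 (adjusted p = 0.798). Adult PDTC males 1 to 5 had Fbp1 values of 13.86, 13.33, 13.83, 12.93 and 13.91, against 13.80, 13.49, 14.13, 13.32 and 13.60 in untreated males 1 to 5, and overlapped. Of the proximal tubule markers 11 of 13 had a lower mean in PDTC adults and 0 of 13 passed, with a median difference of -0.25. With the marker mean as a covariate the adult differences were -0.22 for Pck1, -0.07 for Fbp1 and -0.14 for Khk (adjusted p = 0.654, 0.855 and 0.753).

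Adult PDTC females 1 to 5 had Pck1 values of 13.56, 14.57, 14.82, 15.00 and 14.64, against 15.00, 15.04, 14.67, 15.12 and 14.53 in untreated females 1 to 5. Adult PDTC males 1 to 5 had values of 14.76, 14.64, 14.78, 14.40 and 15.00, against 14.85, 14.92, 14.92, 15.08 and 14.97 in untreated males 1 to 5. Both sexes overlapped, and PDTC female 1 stood about 1 unit below the other females. At 2 days, 2 weeks and in adults, 0 genes of the gluconeogenesis, fructose, glycolysis, carbon supply and regulator lists passed in PDTC against untreated rats of both sexes.

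Adult females had higher Fbp1 and Khk means than adult males, without a call. Khk was 11.45 ± 0.27 in PDTC females and 11.19 ± 0.41 in PDTC males, and 11.76 ± 0.14 in untreated females and 11.33 ± 0.28 in untreated males (SD, n = 5 each). The female minus male difference was 0.26 ± 0.19 (SE) in PDTC adults (limma, adjusted p = 0.572) and 0.44 ± 0.19 in untreated adults (adjusted p = 0.402), where 0.752% and 1.34% of probes were called. For Fbp1 it was 0.12 ± 0.19 in PDTC adults and 0.37 ± 0.19 in untreated adults (adjusted p = 0.818 and 0.524), and for Pck1 -0.20 ± 0.21 and -0.08 ± 0.21 (adjusted p = 0.713 and 0.973). For Khk and for Fbp1, PDTC females lay above PDTC males on 2 of 4 slides and below them on 2, and untreated females lay above untreated males on 4 of 4 slides. Between untreated female and male pups, 0 of the 3 genes passed at 2 days or at 2 weeks, where 0% of probes were called.

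Across the 12 groups, untreated adult males had the highest Pck1 mean and untreated adult females the highest Fbp1 and Khk means, while PDTC males of 2 days had the lowest mean of all 3 genes. Group means of Pck1 ran between 13.45 ± 0.38 (SD, n = 4) in PDTC males of 2 days and 14.95 ± 0.09 (n = 5) in untreated adult males. Those of Fbp1 ran between 13.02 ± 0.40 (n = 4) and 14.03 ± 0.14 (n = 5), and those of Khk between 10.45 ± 0.33 (n = 4) and 11.76 ± 0.14 (n = 5). Of 11 pairs of neighbours in each order, 11 had overlapping ranges. The largest steps were 0.46 for Pck1, between PDTC females of 2 weeks and untreated females of 2 days, 0.27 for Fbp1, between PDTC females and PDTC males of 2 days, and 0.29 for Khk, between untreated and PDTC females of 2 days.

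The 3 genes followed each other over groups more than over single kidneys. Over the 12 group means r was 0.95 for Fbp1 with Khk, 0.84 for Pck1 with Khk and 0.75 for Pck1 with Fbp1. Over deviations of the 59 kidneys from their group means it was 0.38, 0.15 and 0.43 for the same pairs. These are descriptions over points that share arrays and normalization.

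Among 9834 genes, the patterns most like that of Pck1 over group means were Nlrp6 (r = 0.99), Napsa, Sord, Nabp1 and Pdk2 (0.98 each). Those most like Fbp1 were Agpat3 (0.96), Khk, G6pc1, Ces2g and Ppfibp2 (0.95 each), and those most like Khk were Gpr182, Ces2g and Nfs1 (0.97 each), Slc25a10 (0.96) and Fbp1 (0.95). Over the deviations of the 59 kidneys, Pyroxd2 (0.69), Pdk2, Tmem150a, Cubn and Ctsb were nearest to Pck1. Ces2g (0.88), Sord, Tmem106a, Acmsd and Vil1 were nearest to Fbp1, and Dhx30 (0.74), Ctbs, Fmo4, Ldhd and Cisd1 to Khk. Sord, which makes fructose from sorbitol, was thus among the 5 nearest to Pck1 over groups and to Fbp1 over kidneys.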

How the data were processed

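RNA of whole kidneys from 59 rats was measured on Illumina RatRef-12 arrays, 1 per rat, on 10 slides. The deposited intensity values are raw mean signals, 1 for each probe of an array, per the file headers. Detection p-values stand beside the signals in the deposited table and were two-sided, as their values showed. The authors' deposited log2 values were normalized between arrays by a method not given in the sources used here. Scanner software and background treatment are not given there either.

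The planned background step of limma's neqc takes detection p-values as one-sided and was adapted: background was set on each array at the median of 50 probes, those of largest detection p-value, with an SD mirrored from the signals below it. Signals were corrected by normexp, 16 was added, and arrays were quantile-normalized over all 59 and put on the log2 scale. A probe was above background at a one-sided normal p under 0.05 and entered a fit if 4 or more of the arrays in that fit showed it above background. The platform annotation names 1 gene for 13793 of 22523 probes, several genes for 0 and no gene for 8730, and 13752 names were matched by gene ID to the GRCr8 gene table. A gene with several probes was represented by the one with the highest mean.

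Groups came from the labels. limma 3.58.1 in R 4.3.3 fitted group means (lmFit, eBayes), with Benjamini-Hochberg adjustment over all probes tested and a threshold of 0.05, for 26 comparisons of treatment, sex and age. The method was tested on simulated data. A comparison of treatments used the 4 groups of 1 age, and a comparison of ages the groups of 1 treatment at both ages. For the differences of the PDTC effect between ages, both treatments at both ages entered. Genes were named by a rule that took the 3 enzymes, list members with the smallest p and the 5 genes most like each enzyme. Values of other list members added for context were chosen after they were seen. Members and lists were chosen with earlier results of these data known. Alternatives were no normexp correction, scaling to 1 median, the deposited log2 values, other filters, slide as a fixed term or random block, 1 fit of all groups, array weights, leaving out slide 6 and each array, and, chosen after seeing the data, list counts without 1 rat and the mean of proximal tubule markers as a covariate. The number of arrays limits the precision. Listed genes with no annotated probe were not analysed here.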

Additional observations from a re-analysis of the deposited data

Results flagged for a closer look

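Of 36 groups of 4 to 6 kidneys (3 genes in 12 groups), 5 held a kidney whose gap to its nearest neighbour, relative to the range of the group, was above the 95% critical value of Dixon's test; chance flags about 1 in 20 groups. For Pck1 these were PDTC female 3 of 2 days at 13.46 (next 13.70), PDTC female 3 of 2 weeks at 13.35 (next 14.20) and untreated male 3 of 2 days at 13.98 (next 13.69). For Fbp1 it was untreated male 2 of 2 days at 13.05 (next 13.55), and for Khk it was PDTC male 4 of 2 days at 10.94 (next 10.32).

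The mean of the 13 proximal tubule markers was also outside the range of the group's other kidneys in 4 of the 5. It was 10.73 in PDTC female 3 of 2 days, against 11.54 to 11.74 in the others, and 11.44 in PDTC female 3 of 2 weeks, against 12.14 to 12.24. It was 11.05 in untreated male 2 of 2 days, against 11.45 to 11.79. In PDTC male 4 of 2 days it was 11.81, above the others at 10.69 to 11.09, and the mean of 3 stromal markers there was 11.56, below the others at 12.00 to 12.06. Means of other marker lists lay outside the range of the group's other kidneys in each of the 5, so this was not particular to the proximal tubule. In PDTC female 3 of 2 days, podocyte markers were at 9.83, against 9.53 to 9.70, while loop and distal tubule markers lay within the range. Untreated male 3 of 2 days, within the range for the proximal tubule, had podocyte markers at 9.75, against 9.41 to 9.61. The part of these markers in the gene values was not tested.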

How the results depend on the processing

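All values are log2 differences. Of 807 values recomputed under alternatives that kept every rat of the comparison or left out slide 6, 764 kept their direction and side of the threshold and 43 did not; of 1260 that left out 1 rat, 1200 did and 60 did not. Differences near 0 account for most changes of sign. The filters, the missing background correction and the deposited values changed no call. The rise of all 3 genes from 2 days to 2 weeks kept its call in PDTC pups under every alternative run, and in untreated pups under every one except Fbp1 with arrays scaled to 1 median. Causes were not tested.

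With arrays scaled to 1 median, values at 2 weeks minus 2 days no longer passed for Fbp1 in untreated pups (0.36), Pck1 (0.50) and Khk (0.35) in untreated males, and Pck1 (0.52) and Fbp1 (0.50) in untreated females. For adult minus 2 weeks, Pck1 no longer passed in untreated rats (0.36), males (0.45) or females (0.27). Fbp1 stood at -0.53 in untreated rats and -0.62 in PDTC rats, both then called, and at -0.45 in untreated females. Khk stood at -0.68 in untreated rats, males and females and -0.82 in PDTC rats, all called. PDTC minus untreated at 2 weeks turned to 0.022 for Fbp1 and 0.029 for Khk, and the female minus male PDTC effect in adults to 0.077 for Pck1 and 0.0089 for Fbp1.

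With slide as a fixed term, adult minus 2 weeks rests on 1 pup in untreated rats, and no value could be had in PDTC rats. Pck1 no longer passed in untreated rats (0.30), males (0.43) or females (0.18), Khk turned to 0.073 in males and Fbp1 to -0.25 in females. PDTC minus untreated at 2 weeks turned to 0.012 for Pck1 and 0.053 for Fbp1, and to -0.032 for Khk in males. With slide as a random block, Fbp1 turned to 0.019 in both sexes at 2 weeks and Khk to -0.0015 in males, and Pck1 in untreated females minus males of 2 weeks to -0.00046.

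In 1 fit of all 12 groups, Pck1 in PDTC adults minus 2 weeks passed (0.33). With array weights, Khk passed in PDTC minus untreated pups of 2 days (-0.44), and Pck1 in untreated females no longer passed for adult minus 2 weeks (0.43). PDTC minus untreated then turned to 0.044 for Fbp1 at 2 weeks, -0.036 for Khk in males of 2 weeks and 0.034 for Khk in adult males. Without slide 6, Fbp1 in females of 2 days turned to 0.12. With the proximal tubule marker mean as a covariate, chosen after the data were seen, values in males of 2 weeks turned to -0.11 for Pck1, -0.064 for Fbp1 and -0.017 for Khk. The female minus male effect on Fbp1 at 2 weeks turned to 0.012, and untreated females minus males of 2 weeks to -0.061 for Pck1 and -0.017 for Fbp1.

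Leaving out each rat in turn gave these ranges where a sign or call changed. PDTC minus untreated at 2 days ran between -0.49 and -0.37 for Khk in both sexes, and in females between -0.089 and 0.0072 for Pck1 and between -0.15 and 0.12 for Fbp1. At 2 weeks it ran between -0.14 and 0.0058 for Pck1 and between -0.060 and 0.021 for Fbp1 in both sexes. In males of 2 weeks it ran between -0.094 and 0.10 for Pck1, -0.062 and 0.073 for Fbp1 and -0.049 and 0.074 for Khk, and in females between -0.14 and 0.021 for Fbp1. In adult males it ran between -0.18 and 0.067 for Fbp1 and between -0.28 and 0.0015 for Khk. The female minus male PDTC effect ran between -0.16 and 0.0063 for Fbp1 at 2 weeks and between -0.24 and 0.12 for Pck1 in adults. PDTC females minus males ran between -0.32 and 0.042 for Pck1 and between -0.043 and 0.20 for Fbp1 in adults. Untreated females minus males ran between -0.0036 and 0.095 at 2 days, -0.12 and 0.11 at 2 weeks and -0.14 and 0.0096 in adults for Pck1, and between -0.058 and 0.11 at 2 weeks for Fbp1. For 2 weeks minus 2 days, Fbp1 ran between 0.26 and 0.46 and Khk between 0.33 and 0.44 in untreated males, and Fbp1 between 0.47 and 0.67 in untreated females. For adult minus 2 weeks, Khk ran between -0.12 and 0.054 in untreated males and Pck1 between 0.40 and 0.58 in untreated females. In PDTC rats it ran between 0.24 and 0.45 for Pck1, -0.29 and -0.16 for Fbp1 and -0.11 and 0.028 for Khk.

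No paired analysis was possible because each array held a different rat and the labels name no litters or pairs. The rat numbers used here follow the order of the samples within each group and are not given by the labels. Slide, which groups share, served as a fixed term, as a random block and for values within slides. With 4 to 6 rats a group, small differences were not detectable. The intervals given are unadjusted and do not mark the limit of detection. Khk in PDTC minus untreated pups of 2 days had an interval of -0.62 to -0.19 and did not pass (limma, adjusted p = 0.125).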

Other observations

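Adult PDTC male 4 had the lowest Fbp1 value of the adult kidneys, 12.93, and a proximal tubule marker mean of 11.50, against 11.80 to 12.47 in the other adult PDTC males. Its means of loop and distal tubule markers (13.50, against 12.22 to 13.14) and of collecting duct markers (9.49, against 8.62 to 9.05) lay above those of the others, while its Khk value, 11.32, lay within their range. Adult PDTC female 1, the lowest adult in Pck1 at 13.56, had Fbp1 and Khk values of 13.65 and 11.52, within the range of the other adult PDTC females.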
